A study of Mus musculus with 2 samples.

Results

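Keratins are the intermediate filament proteins of epithelia, and 8 of them are the subject here: Krt5, Krt14, Krt15 and Krt17, which mark basal layers, and Krt7, Krt8, Krt18 and Krt19, which mark luminal or simple epithelia. They are 8 of the 53 keratin genes among the 32285 genes counted. The 8 were chosen by name, with no measured value in the rule, and their UMIs (unique molecular identifiers, 1 per captured transcript molecule) were summed over cells whose types were named from markers that hold no keratin. The data are single cell RNA sequencing of dissociated, sorted mammary glands of adult female wild-type mice, with 1 10x Genomics library per group. Ctrl came from control mice and CL from mice that received clodronate liposomes intraperitoneally in repeated doses before harvest. Clodronate liposomes are vesicles whose drug kills the phagocytes that ingest them. The age tag gives 9 to 10 weeks for both groups and the protocol gives 8 to 10 weeks. The sort took CD45+ immune cells and CD31-TER119- cells, in a proportion that was not stated, and the labels name neither animals nor pools.

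A keratin filament is an obligate pair of a type I and a type II chain. In the mammary gland the outer basal cells, which are contractile myoepithelium, carry KRT5 with KRT14, and the inner luminal cells carry KRT8 with KRT18 and KRT19. KRT15 and KRT17 are further type I chains of basal and stratified epithelia, and KRT7 is a type II chain of ducts and glands. The luminal layer holds hormone-responsive cells, which carry the receptors for estrogen and progesterone, and the secretory lineage, which makes milk. Krt5, Krt7 and Krt8 are the type II genes of the 8, and the other members are type I.

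The genes sit in clusters. In the GENCODE M21 annotation of GRCm38, Krt7 (chr15:101411043-101430313, plus strand), Krt5 (chr15:101707070-101712898, minus strand), Krt8 (chr15:101996698-102004482, minus strand) and Krt18 (chr15:102028180-102032027, plus strand) lie on chromosome 15. Krt18 is the only type I member there, and 23.7 kb separate it from Krt8, its filament partner. Krt15 (chr11:100131758-100135928), Krt19 (chr11:100140810-100148665), Krt14 (chr11:100203162-100207548) and Krt17 (chr11:100256217-100261029) lie on the minus strand of chromosome 11, with 4.88 kb between Krt15 and Krt19. The promoters of the 4 members on chromosome 15 are shown because they hold the basal gene Krt5 beside luminal genes, among them the pair Krt8 and Krt18 whose levels ran together in the luminal cells. Each is 300 bases, from 250 before to 50 after the RefSeq start (build GRCm38.p6), on the gene's strand: chr15:101712856-101713155 for Krt5, chr15:101412153-101412452 for Krt7, chr15:102004293-102004592 for Krt8 and chr15:102027966-102028265 for Krt18. Capitals mark matches, on either strand, to TATAAA (the TATA box), TGANTCA (the AP-1 motif) or GGGCGG (the GC box).
Krt5: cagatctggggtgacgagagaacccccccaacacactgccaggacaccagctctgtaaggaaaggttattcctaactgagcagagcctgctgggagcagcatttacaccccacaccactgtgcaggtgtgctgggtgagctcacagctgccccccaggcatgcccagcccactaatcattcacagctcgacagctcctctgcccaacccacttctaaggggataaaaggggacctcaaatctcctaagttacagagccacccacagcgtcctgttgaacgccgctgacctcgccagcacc
Krt7: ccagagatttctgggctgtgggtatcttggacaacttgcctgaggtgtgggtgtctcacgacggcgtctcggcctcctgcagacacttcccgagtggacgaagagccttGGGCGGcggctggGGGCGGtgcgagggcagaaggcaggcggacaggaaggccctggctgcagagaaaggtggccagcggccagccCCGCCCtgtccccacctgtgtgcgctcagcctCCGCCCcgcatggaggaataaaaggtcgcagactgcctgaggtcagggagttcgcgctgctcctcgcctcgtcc
Krt8: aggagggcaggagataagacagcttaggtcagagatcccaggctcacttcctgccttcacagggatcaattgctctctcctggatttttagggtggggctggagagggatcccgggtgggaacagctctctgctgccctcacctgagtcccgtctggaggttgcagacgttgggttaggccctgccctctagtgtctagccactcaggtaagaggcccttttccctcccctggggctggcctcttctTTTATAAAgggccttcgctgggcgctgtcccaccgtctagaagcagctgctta
Krt18: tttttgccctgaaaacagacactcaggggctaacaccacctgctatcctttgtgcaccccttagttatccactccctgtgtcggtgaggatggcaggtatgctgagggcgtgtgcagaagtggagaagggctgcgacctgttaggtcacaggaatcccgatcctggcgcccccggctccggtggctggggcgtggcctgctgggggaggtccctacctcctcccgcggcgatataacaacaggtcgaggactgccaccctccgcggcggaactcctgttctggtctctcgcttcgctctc
The window of Krt7 holds 4 GC boxes, whose first bases lie at −141, −128, −56 and −24 from the start. The window of Krt8 holds 1 TATA box read on both strands, at −3 and −1, where the motif and its reverse complement overlap. None of the 3 motifs is spelled in the windows of Krt5 and Krt18, which says only that these letters are not in them. Of 32851 RefSeq promoter windows of the same length, 13.6% hold TATAAA, 7.81% TGANTCA and 35.7% GGGCGG. The RefSeq start lies 7 bases from a GENCODE transcript start for Krt5, 1 for Krt7, 140 for Krt8 and 36 for Krt18, and the Krt7 transcript in question begins 1360 bases from the outer start of the gene. Of the 8 members 5 were matched. The window of Krt14 belongs to the inner transcript Krt14-202, 1518 bases from the gene's start, and is not printed. Krt15, Krt17 and Krt19 were not matched.

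The library labelled Ctrl held 118743318 UMIs and the library labelled CL 155765480. After filtering 5809 and 8643 cells remained, with medians of 11244 and 10203 UMIs, and 18 barcodes stood on the cell lists of both libraries. The cells fell into 25 clusters, of which 24 took a name from their markers. The epithelial classes, called by their markers with the ending -like, were basal-like (401 cells in Ctrl and 440 in CL), hormone-responsive luminal-like (2203 and 2949) and secretory-lineage luminal-like (2595 and 3883). The summed macrophage markers went against the label: summed over all cells they stood at 96.8 CPM (UMIs relative to a fixed total per class or library) in Ctrl and 245 in CL, at 84.2 and 106 without Lyz2, and Adgre1, which encodes the macrophage marker F4/80, at 1.56 and 3.06. Of the 2 macrophage-like clusters, the one with C1qa, C1qb and C1qc among its leading genes held 40 of the cells in Ctrl and 43 in CL, a smaller share in CL as the label would have it, and the one led by Lyz2 held 19 and 225. Endothelial-like cells (53 and 60) were present although the sort was to leave out CD31-bearing cells. With 1 library per group no test between groups is possible, so no p-value is given. Intervals are exact 95% intervals (Poisson for levels, Clopper-Pearson for shares, conditional binomial for ratios), and they cover counting error only.

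Each keratin was higher in cells of its own layer than in those of the other. Krt14 and Krt17 were the most counted keratins of basal-like cells and Krt8 and Krt18 those of luminal-like cells in both libraries. Orders between genes compare 3' molecule counts, which do not grow with transcript length, but capture can differ between genes.

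Krt17, the chain of stressed and appendage epithelia, stood at 5292 CPM in the basal-like cells of Ctrl (5218 to 5367) and 4308 in those of CL (4233 to 4384). Krt14, the type I partner of Krt5, stood at 4816 CPM (4746 to 4888) and 4985 (4905 to 5066). By summed UMIs the 2 changed places between the libraries, Krt17 leading in Ctrl and Krt14 in CL. By the median over cells they did not. Per 10000 UMIs of a cell, Krt14 stood at 44.97 and Krt17 at 43.30 in Ctrl, and at 43.29 and 34.40 in CL. Krt5 stood at 1017 CPM (985 to 1051) and 1020.4 (984 to 1058), intervals that overlap almost whole. Krt15 was the lowest of the basal members, at 383 CPM (363 to 403) in Ctrl and 124 (112 to 138) in CL, and its intervals lie far apart.

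In the luminal-like cells, both classes together, the basal members were low. In Ctrl the basal-like level of Krt5 was at least 405-fold the luminal-like one, that of Krt14 at least 171-fold, that of Krt17 108-fold and that of Krt15 21.9-fold. In CL the folds were at least 510.2 for Krt5, at least 312 for Krt14, 99.99 for Krt17 and 8.12 for Krt15. Here and below, at least marks a fold whose lower level is below that of T and NK-like cells or overlaps it within the intervals. Those levels are given further on, and here this holds for Krt5 (2.51 and 2.00 CPM) and Krt14 (28.2 and 15.96). Such a fold is a lower bound in that sense only, since it is a point estimate with counting error. Krt15 had the smallest fold of the basal members in both libraries. Among luminal-like cells Krt15 was higher in the hormone-responsive class, at 26.3 and 24.3 CPM against 3.88 and 3.08 in the secretory-lineage class (at least 6.78-fold in Ctrl and 7.90-fold in CL). Krt17 went the other way, at 95.4 and 79.1 CPM in the secretory-lineage class against 19.1 and 16.4 in the hormone-responsive class (at least 5.00-fold and 4.82-fold). Krt14 was likewise higher in the secretory-lineage class, at 45.1 and 24.2 CPM against 17.4 and 9.84, and Krt5 was at 3.17 CPM or less in both luminal-like classes of both libraries.

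Krt8 was the most counted keratin of the luminal-like cells. It stood at 8176 CPM in the secretory-lineage cells of Ctrl and 8283 in those of CL, and at 6299 and 6778 in the hormone-responsive cells. Krt18, its type I partner, followed at 5935 and 5845 CPM in the secretory-lineage class and 4982 and 4916 in the hormone-responsive class. Both were somewhat higher in the secretory lineage, Krt8 by 1.30-fold in Ctrl and 1.22-fold in CL and Krt18 by 1.19-fold in both. Krt19, a type I chain that lacks the usual tail, was higher in the hormone-responsive class, at 3339.8 and 2739.5 CPM against 1574 and 1509. Krt7 showed the widest gap of the luminal members between these classes, at 1358 and 1174 CPM in hormone-responsive cells against 262 and 271 in the secretory lineage (5.19-fold and 4.33-fold). The sum of the 4 luminal keratins nevertheless came out nearly equal in both classes, at 15979 CPM (hormone-responsive) and 15946 (secretory-lineage) in Ctrl and 15608 and 15907 in CL.

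Basal-like cells held fewer UMIs of the luminal members. In Ctrl, Krt7 was at least 16.6-fold lower than in luminal-like cells, Krt19 14.4-fold, Krt18 10.4-fold and Krt8 5.70-fold, and in CL the folds were at least 12.8 for Krt7, at least 14.6 for Krt19, 8.97 for Krt18 and 5.36 for Krt8. In basal-like cells Krt8 stood at 1234 and 1383 CPM beside Krt5 at 1017 and 1020.4. No order between the 2 is read from this, since T and NK-like cells held Krt8 at 469 and 472 CPM and Krt5 at 5.54 and 3.40. Keeping the marked doublets narrowed the gap of the summed luminal keratins (log2 basal over luminal) from −3.00 to −1.84 in Ctrl and from −2.85 to −1.55 in CL.

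**Figure D1:**
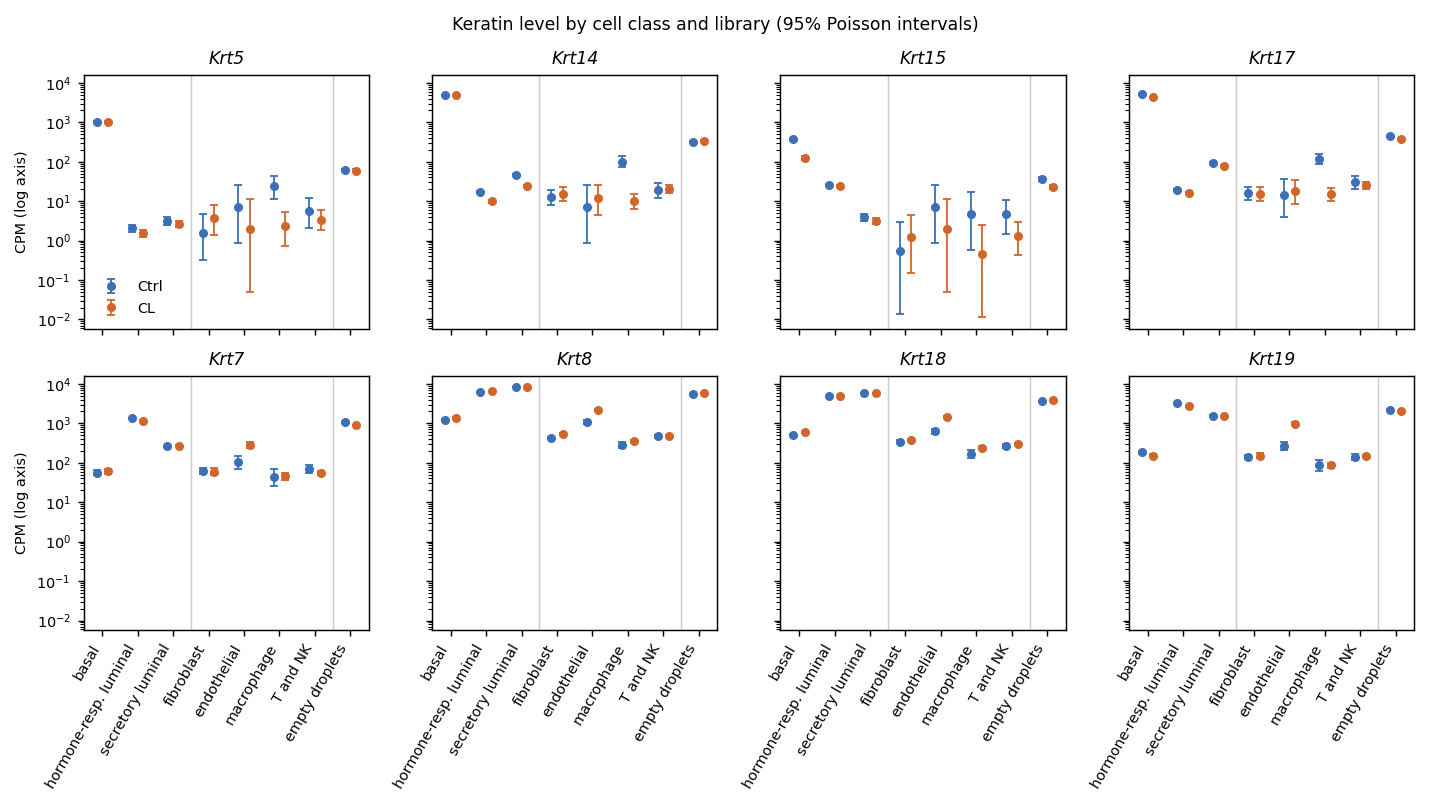
Level of each keratin (CPM, log axis) in 7 cell classes and in empty droplets of 100 to 300 UMIs, in Ctrl (blue) and CL (orange), with 95% Poisson intervals. Basal members peak in basal-like cells (Krt17 at 5292 and 4308 CPM), luminal members in the luminal-like classes (Krt8 at 8176 and 8283 CPM in the secretory lineage), and every keratin has a level above 0 in empty droplets.

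These values are set beside levels in empty droplets and in lymphocytes, and the part of free RNA in them was not tested. Droplets of 100 to 300 UMIs, taken as empty, numbered 54275 in Ctrl and 55973 in CL, and Krt8 stood at 5403 and 5902 CPM in them. Krt18 stood there at 3752 and 3909 CPM, and Krt14 at 324 and 341. T and NK-like cells (213 and 734), lymphocytes that should hold no keratin, had Krt8 at 469 and 472 CPM, Krt18 at 266 and 300, Krt19 at 141 and 146 and Krt7 at 69.2 and 55.7. The basal members were lower in them, with Krt17 at 30.4 and 25.3 CPM, Krt14 at 19.4 and 20.1, Krt5 at 5.54 and 3.40 and Krt15 at 4.61 and 1.31.

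The remaining classes lay below both luminal-like classes for Krt8 and Krt18. Fibroblast-like cells (248 and 265) had Krt8 at 422 CPM in Ctrl (393 to 452), which overlaps the T and NK-like interval (429 to 511), and at 541 in CL (506 to 578), which does not overlap (451 to 495). Macrophage-like cells (59 and 268) had Krt8 at 287 and 363 CPM. Endothelial-like cells were highest of these, with Krt8 at 1065 and 2160 CPM and Krt18 at 633 and 1455. The unnamed cluster (37 and 44 cells) was led by Fabp4 and the contractile genes Myl9, Acta2 and Tagln, and its best scores were for basal cells and for pericytes. It held 0 UMIs of Krt5 in Ctrl and 1 in CL, with Krt14 at 18.6 and 12.3 CPM, against 19.4 and 20.1 in T and NK-like cells. Acta2 and Tagln also lead basal-like cells, where Krt14 stood at 4816 and 4985 CPM.

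Shares of cells with a UMI were read against those lymphocytes after each cell was thinned to 2000 UMIs, which left out 9 and 44 basal-like, 19 and 49 T and NK-like, 50 and 47 hormone-responsive and 60 and 80 secretory-lineage cells with fewer. Median depths before thinning were 8019 (Ctrl) and 5816 (CL) UMIs in basal-like cells and 4872 and 4458 in T and NK-like cells. Thinning evens the total but not the part of free RNA, which can be larger in shallower cells. Krt14 was detected in 99.0% and 99.2% of basal-like cells (99.5% in both unthinned) and Krt17 in 98.5% and 92.4% (99.3% and 95.5% unthinned). Krt5 was detected in 79.1% and 76.8% of them (95.8% and 90.5% unthinned). Krt15 was detected in 22.4% (18.4 to 26.9) and 9.60% (6.88 to 12.9), against 37.7% and 15.0% unthinned, so most basal-like cells of either library had no UMI of it. The shares for these 4 genes in T and NK-like cells were at most 5.67%.

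Krt8 and Krt18 stood clear of the lymphocytes in basal-like cells of both libraries. Krt8 was detected in 83.7% and 82.1% of basal-like cells (99.3% and 96.6% unthinned) against 49.5% and 53.0% of T and NK-like cells. Krt18 was detected in 55.9% and 57.8% (90.3% and 86.6% unthinned) against 35.1% and 35.0%. Krt19 at 24.2% and 20.7% (62.1% and 50.7% unthinned) overlapped the lymphocytes' 19.1% and 20.3% within the intervals. By level, Krt19 was above them in Ctrl, at 184 CPM (170.1 to 198) against 141 (120 to 165), and overlapped them in CL, at 152 (138 to 167) against 146 (134 to 158). Krt7 at 10.97% and 10.6% (36.7% and 30.5% unthinned) was below their 13.4% and 11.2%, and its 56.1 and 61.8 CPM in basal-like cells overlap the lymphocyte level within the intervals. Krt7 in basal-like cells was thus not separable from the lymphocytes, and the part of free RNA in it was not tested.

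The same reading was made for basal members in luminal-like cells. Krt15 in hormone-responsive cells (4.60% in Ctrl, 3.75 to 5.57, and 4.27% in CL, 3.57 to 5.07, or 24.4% and 23.4% unthinned) was above the lymphocytes' 1.03% (0.125 to 3.67) and 0.438% (0.0904 to 1.27). Krt17 in secretory-lineage cells was detected in 9.27% and 7.84% (28.5% and 23.1% unthinned) against 5.67% and 5.26%, with intervals that overlap. By level it was above the lymphocytes in both libraries, at 95.4 CPM (91.9 to 98.97) against 30.4 (20.95 to 42.8) in Ctrl and 79.1 (76.5 to 81.8) against 25.3 (20.6 to 30.9) in CL. Krt14 in secretory-lineage cells (5.01% and 3.37%, or 15.7% and 13.4% unthinned) was not separable by share from the lymphocytes' 3.61% and 4.09%. By level it was above them in Ctrl, at 45.1 CPM (42.7 to 47.6) against 19.4 (11.99 to 29.6), and overlapped them in CL, at 24.2 (22.8 to 25.8) against 20.1 (15.9 to 25.1). Krt5 was detected in 0.71% or less of the cells of either luminal-like class and was not separable from the lymphocytes' 1.03% and 0.73%. Median depths before thinning were 20195 and 17671 UMIs in the hormone-responsive class and 9649 and 9135 in the secretory-lineage class. T and NK-like cells were shallower, at 4872 and 4458. Free RNA can take a larger part of a shallower cell, which neither thinning nor CPM evens out. An overlap with the lymphocytes is therefore no sign that a gene is absent, and the effect of depth was not tested.

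The basal keratins were also set against 6 other basal genes (Acta2, Myh11, Cnn1, Mylk, Oxtr and Trp63). In empty droplets Krt15 had 0.053 UMIs per UMI of those 6 genes in Ctrl and 0.031 in CL. In hormone-responsive cells the ratio was 1.05 and 1.09. Krt17 had 0.64 and 0.53 in empty droplets and 3.22 and 2.67 in secretory-lineage cells. Krt5 had 0.088 and 0.082 in empty droplets and 0.107 and 0.088 in secretory-lineage cells. Krt14 had 0.46 and 0.47 in empty droplets and 1.52 and 0.82 in the secretory lineage. The part of free RNA in these levels was not tested.

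The low levels of Krt14 in secretory-lineage cells rested on few of them. In secretory-lineage cells the 1% of cells with most Krt14 UMIs (26 in Ctrl and 39 in CL) held 63.4% and 44.8% of them, and without those cells Krt14 stood at 16.8 and 13.6 CPM. For Krt17 the same share of cells held 35.6% and 38.2%, and 62.5 and 49.7 CPM remained without them. For Krt15 in hormone-responsive cells it held 27.0% and 21.9%, and 19.5 and 19.3 CPM remained. In macrophage-like cells of Ctrl, 1 of 59 cells held 90% of the Krt17 UMIs and 78.6% of the Krt14 UMIs, and without it Krt17 fell from 120 to 12.5 CPM and Krt14 from 101 to 22.6. That cell also held 125 UMIs of the 6 basal genes. In endothelial-like cells 1 of 53 in Ctrl held 46.4% of the Krt8 UMIs and 1 of 60 in CL held 37.5%. Without it Krt8 went from 1065 to 609.6 CPM in Ctrl and from 2160 to 1508 in CL.

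The makeup of the keratin pool differed by layer. The 8 genes took 1.35% and 1.26% of all UMIs in basal-like cells, 1.60% and 1.57% in hormone-responsive cells and 1.61% and 1.60% in secretory-lineage cells. In basal-like cells the 4 basal members made up 85.3% and 82.7% of the pool, with Krt17 at 39.2% and 34.1%, Krt14 at 35.7% and 39.5% and Krt5 at 7.54% and 8.08%. In hormone-responsive cells Krt8 took 39.3% and 43.3%, Krt18 31.1% and 31.4%, Krt19 20.8% and 17.5% and Krt7 8.47% and 7.50%. In the secretory lineage Krt8 alone took 50.8% and 51.7%, while Krt19 took 9.78% and 9.42%. Type II chains were outnumbered in basal-like cells, with 0.206 and 0.243 type II UMIs per type I UMI among the 8, against 0.913 and 1.03 in hormone-responsive and 1.10 and 1.15 in secretory-lineage cells. Krt8 per Krt18 was 2.39 and 2.33 in basal-like cells, above the 1.26 to 1.42 of the luminal-like classes and the 1.44 and 1.51 of empty droplets.

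**Figure D2:**
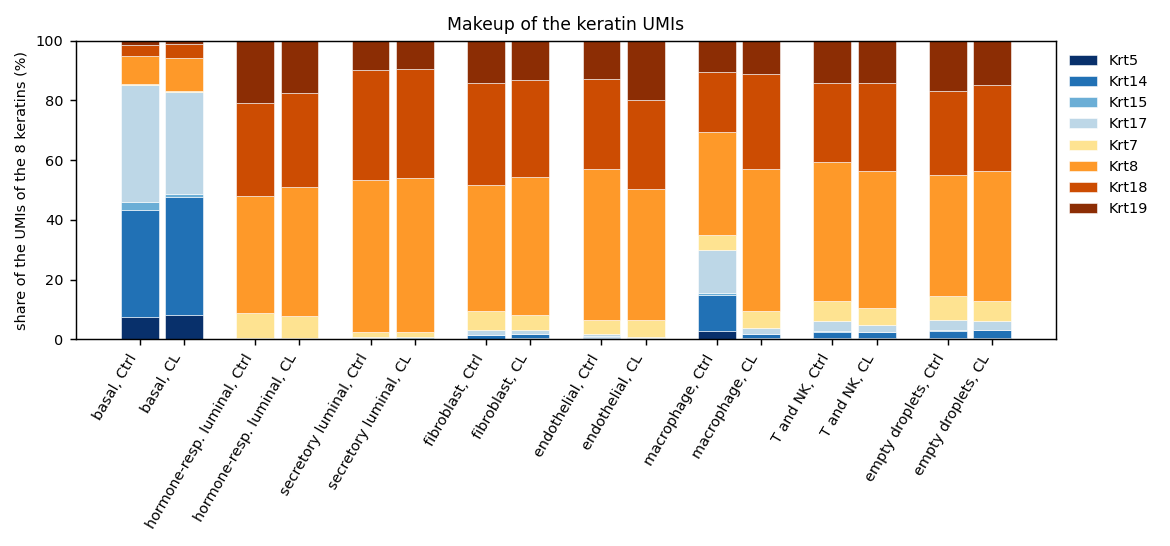
Share of each keratin among the UMIs of the 8 (percent, stacked bars) by class, library and in empty droplets. Basal-like bars are filled mainly by Krt17 and Krt14 (39.2% and 35.7% in Ctrl), luminal-like bars by Krt8, Krt18 and Krt19, and the empty-droplet bars resemble the luminal ones, with 6.505% and 5.98% from basal members.

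Keratins of both layers were found together in most basal-like cells. After thinning, the share of basal-like cells that held a UMI of Krt5 or Krt14 together with 1 of Krt8 or Krt18 was 91.3% (88.1 to 93.9) in Ctrl and 90.9% in CL (99.5% and 98.4% unthinned). Asking for at least 2 UMIs of each pair left 74.5% in both, and asking for 3 left 54.1% and 57.6%. The luminal pair of this share is set beside T and NK-like cells. Krt8 or Krt18 alone was found in 62.9% and 68.6% of T and NK-like cells at 1 UMI, 29.9% and 35.3% at 2 and 13.4% and 16.4% at 3. In basal-like cells it was found in 91.8% and 90.9%, 75.3% and 75.5%, and 55.1% and 60.4%. Both pairs together were rare in T and NK-like cells, of which 4.64% and 4.67% held Krt5 or Krt14 at 1 UMI. There the shares with both pairs were 3.61% and 4.09% at 1 UMI and 0 of 194 cells and 1 of 685 (0.146%) at 2. Hormone-responsive cells gave 2.88% and 2.17% at 1 UMI (20.7% and 17.0% unthinned) and secretory-lineage cells 5.60% and 3.92% (18.3% and 15.2% unthinned), which fell to 1.07% and 0.684% at 2 UMIs in the secretory lineage. The part of free RNA and of unmarked doublets in the basal-like share was not tested.

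**Figure D3:**
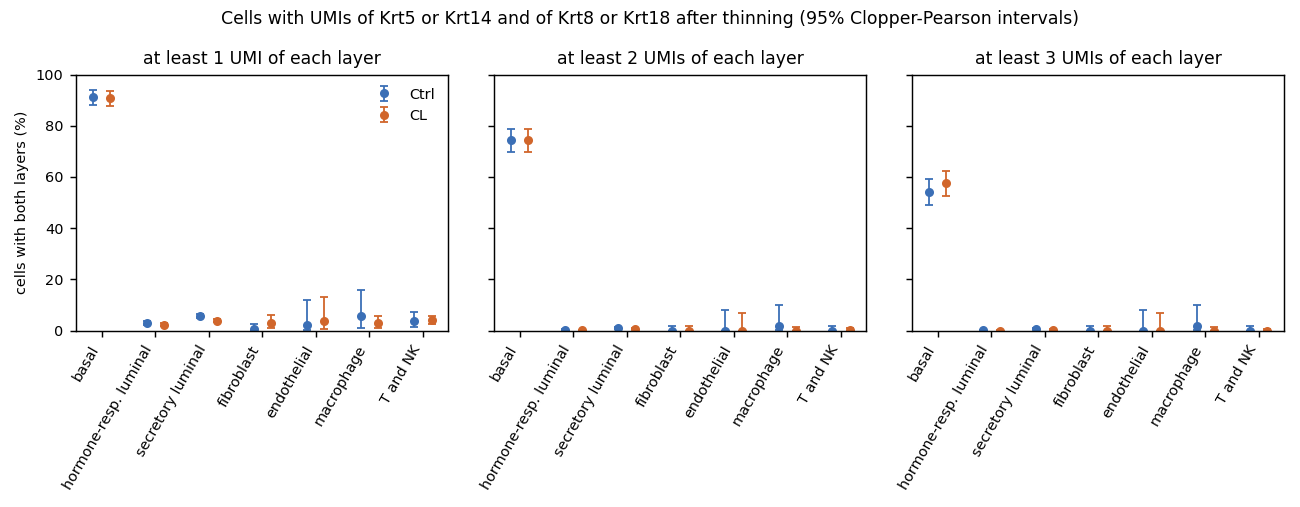
Share of cells (percent) with Krt5 or Krt14 and Krt8 or Krt18 at a minimum of 1, 2 or 3 UMIs of each pair, in cells thinned to 2000 UMIs, by class and library, with 95% Clopper-Pearson intervals. Basal-like cells lie at 91.3% and 90.9% at 1 UMI and at 54.1% and 57.6% at 3. T and NK-like cells lie at 3.61% and 4.09% at 1 UMI, where 4.64% and 4.67% of them hold Krt5 or Krt14 and 62.9% and 68.6% hold Krt8 or Krt18.

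Within a class, the chains varied together from cell to cell to different degrees. These rank correlations are over thinned cells of 1 library and are descriptions that share depth and free RNA. Krt8 and Krt18 gave 0.58 in Ctrl and 0.61 in CL among secretory-lineage cells, 0.35 and 0.34 among hormone-responsive cells and 0.12 and 0.15 among basal-like cells. Krt14 and Krt17 gave 0.32 and 0.34 among basal-like cells. Krt5 and Krt14, the textbook pair of the basal layer, gave 0.14 in both libraries, on a mean of 2.08 and 1.82 Krt5 UMIs per thinned cell. Krt15 with Krt17 gave 0.31 and 0.14.

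The comparison between libraries asks whether the keratins of each layer differed after the treatment. In basal-like cells Krt15 was lower in CL and no other member passed 1.5-fold. In both luminal-like classes no member at or above the minimum level did. Krt14, below that level, was lower in CL by more than 1.5-fold, but not without the 1% of cells with most of its UMIs. A gene was counted as different where its ratio was at least 1.5-fold with an interval that leaves out 1, and only where the library with more of it had 50 CPM and 50 UMIs or over.

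In basal-like cells all 8 members met the minimum and 1 was called, where 3.66% of the 2921 genes tested were called. Krt15, at 383 CPM in Ctrl and 124 in CL, had a log2 ratio of CL over Ctrl of −1.62 (−1.79 to −1.46), and no tested gene had a lower ratio. Krt17 had −0.30 (−0.33 to −0.26) and Krt19 −0.27 (−0.45 to −0.10). Krt18 had 0.20 (0.11 to 0.29), Krt8 0.16 (0.10 to 0.23) and Krt7 0.14 (−0.16 to 0.43). Krt14 at 0.05 (0.02 to 0.08) and Krt5 at 0.00 (−0.07 to 0.07) were level, and their sign turned under 2 and 6 of 15 other settings. The median over the 8 was 0.03 and that over all tested genes −0.05. Naming each cell alone brought Krt18 past the size, at 0.63 (0.55 to 0.72), and turned Krt19 to 0.16. The 4 basal members summed to 11509 CPM in Ctrl and 10438 in CL, and the 4 luminal members to 1990.0 and 2189.

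The Krt15 UMIs of basal-like cells lay in fewer of them in CL, at 9.60% of thinned cells against 22.4% in Ctrl. In CL 8 cells held 10 or more and in Ctrl 47 did, counts not adjusted for level or depth (medians of 5816 and 8019 UMIs). In CL, 4 of 440 cells held 41.5% of its UMIs and in Ctrl 4 of 401 held 18.6%. Without these the levels were 319 and 74.5 CPM and the log2 ratio −2.10. In empty droplets Krt15 was also lower in CL, at 22.7 CPM against 36.9, a log2 ratio of −0.70 (−0.93 to −0.47). In hormone-responsive cells its ratio was −0.11 (−0.22 to 0.00), at levels below the minimum.

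In hormone-responsive cells 4 members met the minimum and 0 were called, where 3.15% of the 2888 genes tested were called. Of these 4, Krt19 had the largest ratio at −0.29 (−0.30 to −0.28), and it was below 0 in 6 of 6 clusters of the class, from −0.40 to −0.21. Krt7 had −0.21 (−0.23 to −0.19), which went to −0.03 when clusters with 90% or more of their cells from 1 library were left out. Krt14 was below the minimum at 17.4 and 9.84 CPM, with −0.82 (−0.98 to −0.66). Its level overlapped that of T and NK-like cells in Ctrl (19.4, 11.99 to 29.6) and lay below it in CL (20.1, 15.9 to 25.1). The Krt14 ratio had an interval below 0 in 3 of 6 clusters and above 0 in 1. The 1% of cells with most of its UMIs held 47.7% of them in Ctrl and 26.1% in CL, and the ratio was −0.32 without those cells. Krt8 had 0.11 (0.10 to 0.11) and Krt18 −0.02 (−0.03 to −0.01), whose sign turned with TMM factors. Krt19 and Krt7 also had negative ratios in empty droplets, at −0.17 and −0.25, and Krt8 a positive one at 0.13, and the part of free RNA in these small differences was not tested.

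In secretory-lineage cells 5 members met the minimum and 0 were called, where 2.14% of the 2896 genes tested were called. Of these 5, Krt17 had the largest ratio at −0.27 (−0.34 to −0.20), with intervals below 0 in 4 of 7 clusters and beside −0.21 in empty droplets. The ratio was below 0 in the other 3 too, with intervals that hold 0, and 1 of these clusters held 17 cells of Ctrl and 752 of CL. Krt19 had −0.06, Krt7 0.05, Krt18 −0.02 and Krt8 0.02. Krt14 at −0.90 (−1.01 to −0.78) was below the minimum at 45.1 and 24.2 CPM, with intervals below 0 in 3 of 7 clusters and above 0 in 1. Its ratio was −0.31 without the 1% of cells with most of its UMIs. Differences of this size can only be set beside counting error, since no library is repeated.

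Basal-like cells were split into 10 sub-clusters, named here by their leading genes, and the basal keratins differed among them. The subdivision used no keratin. Over the 6 sub-clusters with at least 20 cells in Ctrl, Krt15 ranged most widely, 35.8-fold. It went from 21.8 CPM in the cells led by Chil1 to 779 in those led by the contractile genes Ppp1r14a and Actg2 and by Oxtr. Krt17 ranged 2.15-fold (3159 to 6802 CPM), Krt5 2.36-fold (593 to 1399) and Krt14 1.52-fold (4166 to 6330) in Ctrl. In Ctrl, Krt15 and Krt5 were both highest in the cells led by contractile genes and lowest in those led by Chil1. Over the 7 sub-clusters with at least 20 cells in CL, Krt15 was likewise highest in the former (138 CPM) and lowest in the latter (10.4), whereas Krt5 was highest in the cells led by Gbp2 (1210.3) and lowest in those led by Isg15 (625).

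Krt15 was below 0 in log2 ratio in 6 of the 6 sub-clusters with at least 10 cells in both libraries, with a median of −1.59. It went from 779 to 138 CPM in the cells led by Ppp1r14a (49 and 75 cells), from 536 to 123 in those led by Sncg (46 and 31) and from 204 to 29.8 in those led by Plaur (63 and 45). It went from 124 to 75.8 CPM in the cells led by Txnip, Irf1 and the early response gene Fos (66 and 99), a smaller ratio of −0.72 (−1.34 to −0.12). The intervals of the other 2 hold 0: 21.8 and 10.4 CPM in the Chil1-led cells (83 and 51) and 569 and 537 in those led by Gm33651 and Col7a1, a basement membrane collagen (71 and 13).

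The last of these held 71 of the 401 cells of Ctrl and 13 of the 440 of CL, and it was among the highest for Krt15. A sub-cluster led by Gbp2 and the antigen presentation gene Cd74 (5 and 58 cells) and one led by the interferon gene Isg15 (3 and 51) were nearly all from CL. In them Krt15 stood at 82.7 and 92.8 CPM in CL, Krt17 at 3770 and 2291 and Krt5 at 1210.3 and 625. Without the sub-clusters of 90% or more from 1 library the Krt15 ratio was −1.46 and the Krt17 ratio −0.16. Krt17 had intervals below 0 in 3 of the 6 sub-clusters and above 0 in 1, and Krt14 below 0 in 2 and above 0 in 3, so neither ran in 1 direction.

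**Figure D4:**
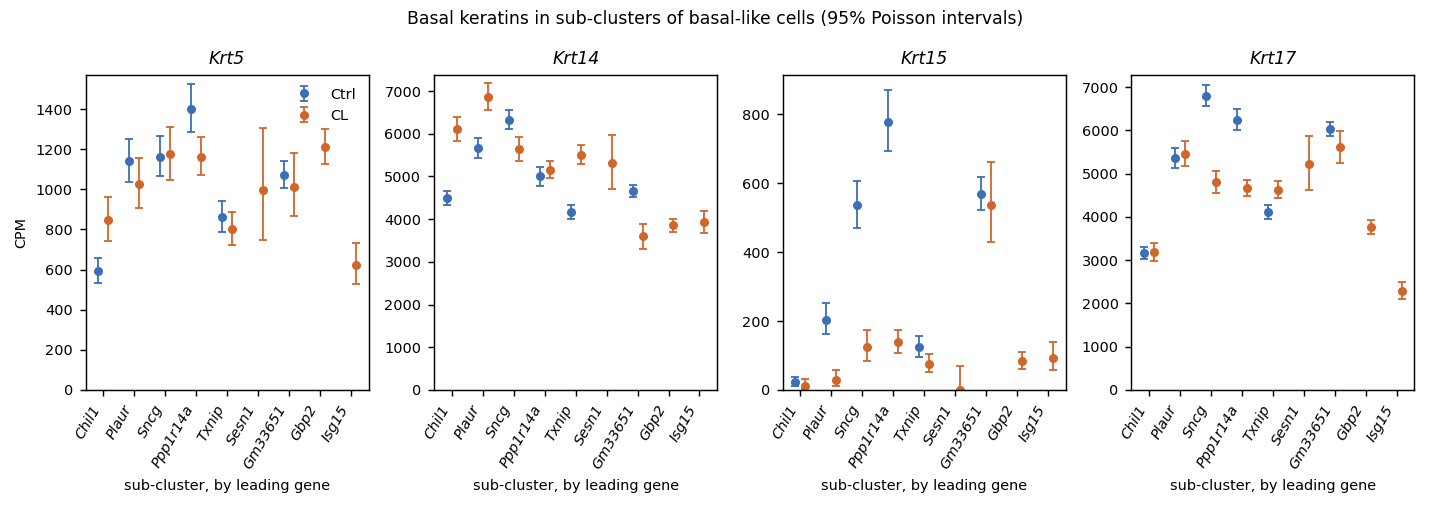
Level (CPM) of Krt5, Krt14, Krt15 and Krt17 in basal-like sub-clusters with at least 10 cells in a library, named by leading gene, in Ctrl (blue) and CL (orange), with 95% Poisson intervals. Krt15 lies at 779 and 138 CPM in the Ppp1r14a-led cells and at 569 and 537 in the Gm33651-led ones.

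Among luminal-like clusters the simple keratins also varied. In Ctrl, Krt7 ran from 699 CPM in the dividing hormone-responsive cluster to 1654 in the one led by Gpx3 and Aoc1, which held 820 cells of Ctrl and 50 of CL. Krt8 in the secretory lineage was lowest in the cluster led by the milk genes Csn3 and Lalba, at 4838 and 5057 CPM, and reached 10035 in Ctrl and 10575 in CL elsewhere in that class. Krt19 ran from 1096 to 2249.5 CPM over the secretory-lineage clusters of Ctrl. Krt18 ran from 4247 to 7247 CPM there, and its lowest cluster was also that of Csn3 and Lalba.

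The genes whose levels ran most like each member were sought among 5135 genes, by the Pearson correlation of log2(CPM + 1) over 14 points, the 7 named classes in both libraries. The points share their libraries and free RNA, so the correlations are descriptions. Krt5 ran most like Acta2 (0.99), Myh11 (0.99) and Cnn1 (0.98), all of the smooth muscle apparatus. Krt14 ran most like Krt17 (0.99), Trp63 (0.98), which encodes the basal regulator p63, and Lmod1 (0.98). Krt17 in turn had Krt14 (0.99), Oxtr (0.96), the oxytocin receptor, and Lmod1 (0.96). Acta2, Myh11, Cnn1, Trp63, Lmod1 and Oxtr were among the markers that named the basal-like class. Krt15 ran most like Trim29, at a lower value (0.94).

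Among the luminal members, Krt8 ran most like the membrane protease St14 (0.99), Krt18 (0.99) and Epcam (0.99), and Krt18 like the tight junction gene Cldn4 (0.99), Krt8 (0.99) and St14 (0.99). Krt19 had Rab25 (0.99), Cystm1 (0.98) and Cldn4 (0.98). Krt7 had the water channel Aqp5 (0.98), the fatty acid elongase Elovl7 (0.97) and Krt19 (0.97).

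Of the 45 other keratin genes, 5 reached 50 CPM in an epithelial class: Krt4, Krt6a, Krt16, Krt42 and Krt80. Only 2 met the minimum in each class, and 1 was called, Krt16 in basal-like cells, where 3.66% of all tested genes were called (3.15% in hormone-responsive and 2.14% in secretory-lineage cells). Krt16, a type I chain of injured epithelium, was at 34.0 CPM in Ctrl and 126 in CL there, a log2 ratio of 1.88 (1.59 to 2.19). It was not a gene of basal-like cells alone, at 95.1 and 103 CPM in the secretory lineage and 47.5 and 48.8 in hormone-responsive cells. Empty droplets held it at 71.6 and 81.1 CPM. In CL, 4 basal-like cells held 33.8% of its UMIs, and the ratio was 1.70 without the 1% of cells with most of them. Of 6 sub-clusters 2 had intervals above 0, those led by Sncg (70.0 to 393 CPM) and by Txnip (28.4 to 162). Krt6a, a type II partner of Krt16, was mainly in hormone-responsive cells, at 171 and 188 CPM against 5.33 and 6.07 in the secretory lineage. Krt80 was at 66.9 and 53.4 CPM in the secretory lineage, Krt4 at 51.1 and 42.6 in hormone-responsive cells and Krt42 at 72.1 and 52.3 in basal-like cells. Krt14, Krt16 and Krt17 share stretches of their transcript ends: 9.53% of the 50-base windows in the last 500 bases of Krt14 and of Krt17 recur in other genes, and 16.9% of those of Krt16, so their split of reads is uncertain to that extent. Krt18 shares 1.11% with the locus Gm5200, and the other 5 members share none.

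Keratin filaments are anchored at desmosomes and hemidesmosomes, and 34 genes were taken as partners. The list holds genes of these junctions and of neighbouring filaments, and beside them others such as Cdh1, Cdh3, Epcam and Sfn. None of the 22 tested in basal-like cells, the 14 in hormone-responsive or the 16 in secretory-lineage cells was called. At the shares over all tested genes (3.66%, 3.15% and 2.14%) lists of these sizes would hold less than 1 call each, so the counts of 0 say nothing particular about the partners. In basal-like cells the lowest ratios were those of Col17a1, a hemidesmosome collagen (249 to 177 CPM, −0.49), Dsp (−0.38) and Eppk1 (−0.23), and the highest those of Vim, the mesenchymal filament (656 to 920 CPM, 0.49), Jup (0.23) and Epcam (0.20). In hormone-responsive cells they included Dsp (−0.07) and Dsg2 (0.02), and Lmna, the nuclear lamin (0.48), Cdh1 (0.29) and Sfn (0.28). In the secretory lineage they were Pkp3 (−0.32), Dsg2 (−0.19) and Dst (−0.15), and Lmna (0.34), Cd151 (0.24) and Sfn (0.19). Of 17 regulators of epithelial genes, 1 of 7 tested was called in basal-like cells (3.66% of all tested genes), Trp63 (85.2 to 50.6 CPM, −0.75, −1.04 to −0.47). In hormone-responsive cells 1 of 7 was called (3.15% of all), Gata3, a luminal transcription factor (195 to 125 CPM, −0.64), and in the secretory lineage 0 of 10 (2.14% of all). The median ratio of the regulators tested in basal-like cells was −0.27, beside −0.05 over all tested genes. Among these only Sox9 was above 0, at 417 CPM in Ctrl and 597 in CL (0.52, 0.42 to 0.62), and it was not called.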

How the data were processed

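The authors deposited raw UMI counts of 1 10x Genomics library per group (3' v2 chemistry per the labels), as unfiltered, unnormalized matrices that still hold the empty droplets. Each matrix has 6794880 columns, which is the size of a larger barcode list than that of the labelled chemistry. The file headers name Cell Ranger 4, whereas the submitters' processing notes name Cell Ranger 2.1.1 with mm10. Neither disagreement is settled here, and the annotation was not given in the sources used here.

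The deposited cell lists (7217 barcodes in Ctrl and 10555 in CL) did not index the matrix columns, so the same number of barcodes with most UMIs was taken. In all, 22 columns were taken in both libraries. Cells with at least 500 genes and at most 15% mitochondrial UMIs were kept. Doublets were scored with Scrublet in scanpy 1.11.5 at a rate of 6%. In Ctrl its automatic threshold marked 488 cells (7.75%). In CL it marked 0 and so failed, and the value from Ctrl was applied there (692 cells, 7.41%), a choice made after seeing the data.

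Keratins were left out of clustering (2000 variable genes, 30 principal components, 15 neighbours, Leiden resolution 1) and of doublet scoring. Lists of markers for 14 classes, without keratins, gave the cluster names. The names are rebuilt, so a difference from the study can come from them. UMIs summed per class and library were scaled to CPM by the class total. The members and lists were chosen with earlier results of these data known. Named beyond the 8 members were the 3 genes most like each, other keratins at 50 CPM or more, the 3 partners of largest ratio in each direction per class and up to 3 regulators. For 1 macrophage marker and 3 genes that these rules name, results are not reported here. The intervals of the ratios between libraries, the 1.5-fold calls and the thinning were tested on simulated data, and the naming of cells was not. Software was Python 3.11, numpy 2.4.6, scipy 1.17.1 and edgeR 4.0.16 (TMM factors only). Alternatives covered the cell filters, doublets, clustering, naming, scaling and thinning.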

Additional observations from a re-analysis of the deposited data

How the results depend on the processing

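The results were recomputed under 15 settings, not all of which apply to each result, and 4 added ones (leaving out clusters or basal sub-clusters), which were chosen after seeing the data. Of the values that answer a comparison 131 kept within their error and 45 moved, and of those for single keratins 350 kept and 131 moved. The count of keratins called stayed at 1 in basal-like and 0 in both luminal-like classes except that naming each cell alone gave 2 in basal-like cells. Krt15 in basal-like cells ranged from −2.04 (mean of cell CPM) to −1.46 (without basal sub-clusters of 90% or more from 1 library), with the same sign under all 15 settings that apply to a ratio between the libraries, the 4 added ones included. The causes of the moves were not tested.

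The log2 ratio of CL over Ctrl for the summed basal keratins in basal-like cells was −0.14, and −0.072 with TMM factors, −0.25 with doublets kept, −0.20 with each cell named alone, −0.11 with a mitochondrial limit of 5%, −0.022 without basal sub-clusters of 90% or more from 1 library and −0.095 without the 2 basal sub-clusters of highest doublet score. For the summed luminal keratins in hormone-responsive cells it was −0.034, and −0.022 at resolution 0.5 and without the highest 10% of doublet scores, −0.020 with doublets kept, −0.024 with keratins kept in clustering, −0.017 with the mean of cell CPM and −0.025 without clusters of a median over 25000 UMIs. It was −0.0089 with TMM factors, −0.029 with a denominator without keratins and abundant genes, −0.041 with a mitochondrial limit of 5% and −0.062 without clusters of 90% or more from 1 library. In the secretory lineage it was −0.0035, and 0.039 with TMM factors, 0.026 with the mean of cell CPM and 0.027 without clusters of 90% or more from 1 library.

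The log2 ratio of basal-like over luminal-like cells for the summed basal keratins was 6.89 in Ctrl and 7.10 in CL. It was 6.67 and 6.72 with doublets kept, 6.74 and 6.84 with the mean of cell CPM, 6.75 and 7.20 without clusters of 90% or more from 1 library, 6.81 in Ctrl with a mitochondrial limit of 5%, and 7.21 and 7.15 in CL without basal sub-clusters of 90% or more from 1 library and without those of highest doublet score. For the summed luminal keratins it was −3.00 and −2.85, and −1.84 and −1.55 with doublets kept and −2.95 and −2.49 with each cell named alone. In CL it was −2.89 without the highest 10% of doublet scores, −2.78 with keratins kept in clustering, −2.96 with a mitochondrial limit of 5%, and −2.76 without either group of basal sub-clusters.

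The share of basal-like cells with both layers was 91.3% in Ctrl and 90.9% in CL, and 74.5% in both at a minimum of 2 UMIs, 74.0% and 78.0% when thinned to 1000 UMIs, 96.3% and 98.0% at the deeper thinning tried, and 87.9% in Ctrl without the highest 10% of doublet scores. No paired analysis was possible because each group has 1 library, and for the same reason no library could be left out. Depth limits the rarer members: Krt15 was counted in 366 UMIs in the basal-like cells of CL, and Krt7 in basal-like cells and Krt5 in luminal-like cells were at or below the level of T and NK-like cells, or overlapped it.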
